A study of Oncorhynchus mykiss with 69 samples.

Results

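RTgutGC, written RTgutCC in the labels, is a continuous epithelial line from the rainbow trout intestine, and its response to the highest concentration of methylmercury is described here across 21859 genes. The comparison holds 4 of the 69 libraries of the series: 2 of untreated gut cells and 2 of gut cells at the highest concentration, which the titles give as 1 and the deposited tables as 250, with no unit. These libraries were taken by line, chemical and concentration from the labels, and no measured value entered that choice. The series also exposed a gill line (RTGill-W1) and a liver line (RTL-W1), and used fluoxetine as a second chemical; fluoxetine libraries are not used here. All groups were kept in L-15 medium at the same temperature and were exposed for 24 h, the controls without methylmercury. The gut line had 4 further concentrations with 2 libraries each: 0.25, 2.5 and 25 on the table scale, and one given as 0.5 in the titles, called the next lower concentration below. Each tissue is represented by 1 cell line, and nothing in the labels says whether the 2 libraries of a group came from separate cultures, so every p-value measures only the spread between these libraries.

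Methylmercury is an organic mercury that binds thiol groups of proteins and of glutathione, and in fish it enters mainly through the gut wall with food. Cells meet thiol-reactive compounds with several linked programmes. Keap1, a cysteine-rich protein, releases the transcription factor Nrf2, which drives genes of glutathione synthesis, glutathione reduction and NADPH supply; misfolded protein activates heat shock factors, which drive HSP70 genes; and the integrated stress response slows translation while raising genes of amino acid supply.

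Values per library could not be recovered from the deposited tables, so levels are given as the mean of the 2 libraries of a group, in estimated reads per library. These were recovered from log2 values, and their sum per library, counted in megareads, was 7.74 in the control and 8.24 at 250. The deposited log2 fold change of the median gene was -1.01 at 250, against -0.56 at the next lower concentration and -0.21 at 25. The 10 genes with the most reads at 250 held 28.3% of all reads there and 6.65% in the control; their part in the shift of the median was not tested. Changes below are therefore log2 differences from the control minus that of the median gene, called the centred change, each with its standard error (SE, 2 libraries a group, variance estimated from the 12 methylmercury libraries of the line). A gene is called higher, or said to have risen, where its centred change is above 0 with a Benjamini-Hochberg adjusted p under 0.05 in limma's moderated t-test, and lower, or fallen, in the mirror case. In bulk RNA, fewer cells of a type and less RNA per cell cannot be told apart.

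At 250, 10445 of 21859 genes were called, which is 47.8% of those tested. Of these 4778 were higher (21.9% of genes) and 5667 lower (25.9%), so higher genes made up 45.7% of the calls. That split depends on the reference: it was 17.6% higher without centring and 61.7% higher when the median of the better expressed genes was taken as 0, and 3859 of the 4778 higher genes also had a positive fold change as deposited. Among centred changes, large rises outnumbered large falls. A centred change of at least 1 log2 unit was passed by 3872 higher and 2704 lower genes. One of at least 4 log2 units, which is 16-fold, was passed by 606 higher and 85 lower genes. These counts also depend on the reference, because the median gene, at -1.01 as deposited at 250, was set to 0. They were not repeated without centring. Falls are further limited by the control reads, because a gene cannot go below 0 reads. Genes with few control reads therefore could not enter the 85, whereas rises have no such limit. Read depth moved with direction. Among the 5691 genes with under 10 estimated reads per library, 21% were higher and 2.57% lower, whereas of the 5239 genes with 200 to 1000 reads 18.3% were higher and 46.4% lower. The 1379 genes with at least 1000 reads did not continue this order, with 33.8% higher and 37.2% lower. A gene with 0 reads in both groups has a centred change of 1.18 by construction. For some of the lists with members under 10 reads, the counts over members with at least 10 reads are therefore given as well. The authors' deposited table calls 13852 genes (63.4%) in an F-test over all 5 concentrations, on values that were not centred.

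**Figure D1:**
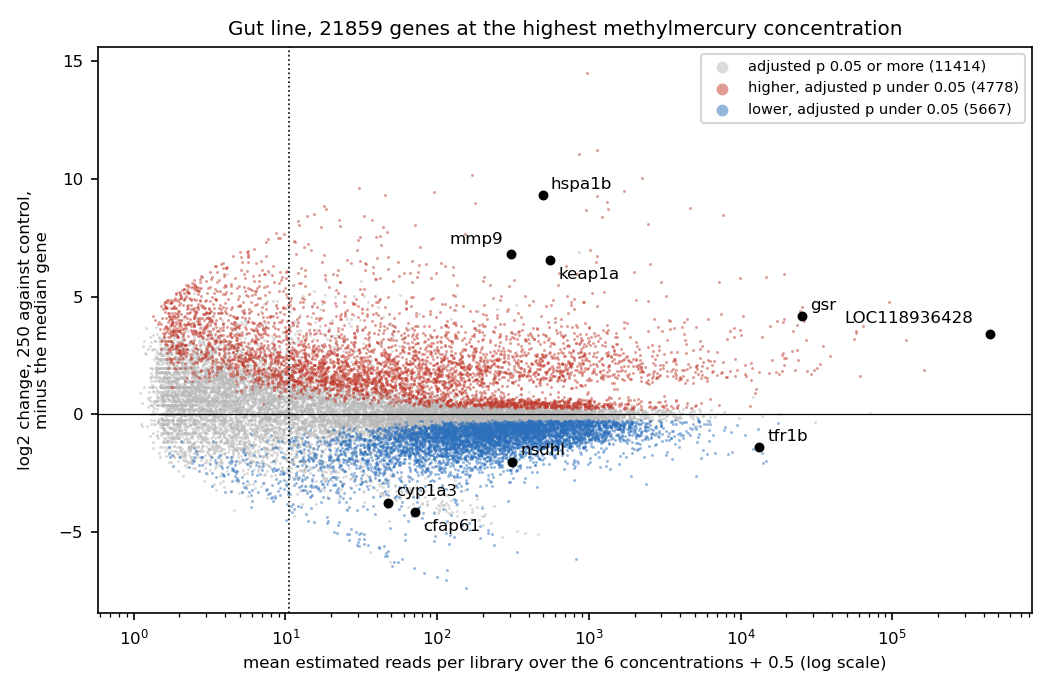
Centred log2 change at 250 against the mean estimated reads per library (log axis) for the 21859 genes of the gut line; red points are the 4778 higher genes, blue the 5667 lower genes and grey the rest, and the dotted line marks 10 reads. Rises reach further from 0 than falls, which are limited because a gene cannot go below 0 reads. The genes named in the plot lie from hspa1b at 9.31 down to cfap61 at -4.17.

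The Keap1 and Nrf2 list stood out for its uniformity. All 7 members with a symbol rose, also with either other reference except for 1 member without centring (6 of 7), and their median centred change was 3.39 beside 0 for all genes by definition. The gene for the sensor itself moved furthest. Keap1a had 55.0 estimated reads per library in the control, 704 at the next lower concentration and 2280 at 250, a centred change of 6.54 ± 0.13 (SE; adjusted p = 5.645e-07). Its paralogue keap1b started far higher, at 1993 reads, and reached 11450, a change of 3.70 ± 0.07. Reads of such paralogues can be shared by a quantifier, so the split between keap1a and keap1b is less certain than their common direction. Sqstm1, an autophagy receptor that competes with Nrf2 for Keap1, rose from 1183 to 8526 reads (4.03 ± 0.12). Bach1b, a repressor of Nrf2 target genes, rose from 146 to 678 reads (3.39 ± 0.10). Hmox1a, the haem-degrading oxygenase that Bach1 represses in mammals, had only 29.0 reads in the control and 107.1 at 250 (3.04 ± 0.30). The small Maf proteins pair with Nrf2 on DNA; maff rose by 2.65 ± 0.11, and mafk was also called. Nfe2l2, gclm, slc7a11, txnrd1, mt2 and bag3 were not analysed here under these symbols.

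Of 19 glutathione genes 11 rose and 4 fell (9 and 7 without centring, 11 and 2 with the better expressed genes as reference), with a median of 2.17. Gsr, which reduces oxidised glutathione, went from 8658 to 68570 estimated reads per library, a centred change of 4.16 ± 0.09. Gclc, the catalytic subunit of the rate-limiting enzyme of glutathione synthesis, went from 900 to 2573 reads (2.69 ± 0.08). Gss, the second enzyme of the pathway, rose by 2.23 ± 0.08. Its estimated reads at the next lower concentration were close to those at 250. The deposited change of the median gene was -0.56 there and -1.01 at 250, so similar reads do not mean a similar centred change. Abcc2, an exporter of glutathione conjugates, rose from 128 to 1396 reads (4.62 ± 0.12), and the transferase gsto1 from 3898 to 20190 (3.55 ± 0.10). Chac1, which breaks glutathione down and is a target of the integrated stress response, rose in the same cells from 3822 to 30750 reads (4.18 ± 0.09). The members that fell were the transferases gstk1, gstt2 and gstz1 and the peroxidase gpx7, with centred changes of -1.75, -1.73, -0.82 and -0.58.

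The suppliers of NADPH went both ways, with 5 of 14 members higher and 5 lower (5 and 9 without centring, 7 and 2 with the better expressed genes as reference). Their median was -0.06. Among the higher ones pgd, a dehydrogenase of the pentose phosphate pathway, went from 16420 to 36020 reads (2.31 ± 0.08). Mthfd2, a mitochondrial folate enzyme, rose by 2.65 ± 0.09 and idh2 by 1.96 ± 0.08. In the thioredoxin and peroxiredoxin list 3 of 10 members rose and 5 fell (2 and 7 without centring). Prdx1, an abundant cytosolic peroxiredoxin, rose from 13530 to 20840 reads (1.80 ± 0.10), and the sestrin sesn1 rose by 1.65 ± 0.19. The members that fell included prdx4, the peroxiredoxin of the endoplasmic reticulum, which went from 165 to 14.3 reads (-2.31 ± 0.18), txndc15 (-1.21 ± 0.18) and cat, the catalase gene (-0.99 ± 0.14). Selenoproteins and their synthesis factors had 3 of 14 members higher and 7 lower (1 and 10 without centring, 3 and 4 with the better expressed genes as reference). Gpx1 rose from 145 to 402 reads (2.64 ± 0.19), and the deiodinase dio2 had a change of 1.73 ± 0.38 that was not called without centring. Selenoh (-1.81 ± 0.15) and sepsecs (-1.16 ± 0.12), an enzyme that makes selenocysteine on its tRNA, fell.

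Among chaperones the HSP70 genes changed most. Of 25 members 7 rose and 8 fell (4 and 18 without centring, 9 and 5 with the better expressed genes as reference), with a median of 0.06. Hspa1b, an inducible HSP70, had 9.21 estimated reads per library in the control, 189 at the next lower concentration and 2717 at 250, a centred change of 9.31 ± 0.46 with a 95% interval from 8.23 to 10.38 (adjusted p = 5.789e-06). The other HSP70 genes with a symbol in the list, hsp70a and hsp70b, were expressed already in the control. Hsp70a went from 1771 to 43070 reads (5.78 ± 0.17) and hsp70b from 1485 to 32580 (5.63 ± 0.18); these near-identical genes can exchange reads. Hsp47, the collagen chaperone, rose from 12790 to 34600 reads (2.61 ± 0.08). The heat shock factor gene hsf1 was not called, with a centred change of 0.07 ± 0.10. Of the 8 members that fell 4 were DnaJ co-chaperones, with dnajc10 and dnajc9 at -1.71 and -1.38. Folding and quality control in the endoplasmic reticulum did not show such rises: 7 of 16 members were higher and 5 lower, but only 2 of the 7 had a positive fold change as deposited, and without centring 0 were called higher and 14 lower, against 9 and 3 with the better expressed genes as reference. Wfs1b (1.09 ± 0.11) and ero1a (1.20 ± 0.21) were not called without centring, and atf6 was at 0.37 ± 0.11. The oxidoreductase pdia7 fell from 581 to 71.4 reads (-1.84 ± 0.28). Derl3, which takes misfolded proteins out of the compartment, had 22.5 reads in the control and 1.44 at 250, with a 95% counting interval of the centred change from -5.06 to -1.09.

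Genes of the integrated stress response and amino acid supply rose in 7 of 10 cases and none fell (7 and 1 without centring), with a median of 2.40. The gene with the synonym ddit4l, whose mammalian product restrains mTORC1, went from 2539 to 63050 reads (5.81 ± 0.13). Cebpb, a transcription factor induced in this response, rose by 3.54 ± 0.12, from 1153 to 5932 reads. Slc1a4, a carrier of small neutral amino acids, rose by 2.97 ± 0.09, and the serine synthesis genes phgdh and psat1 by 2.14 and 1.43. Of 11 aminoacyl-tRNA synthetases 3 rose and 4 fell (2 and 8 without centring, 5 and 3 with the better expressed genes as reference). Hars (2.02 ± 0.08) and gars1 (1.598 ± 0.08) were among the risers, and rars1 (-1.32 ± 0.12) and the mitochondrial vars2 (-1.42 ± 0.19) fell. Translation factors had 3 of 11 members higher and 4 lower (3 and 6 without centring). Eif4a2 rose from 876 to 2584 reads (2.74 ± 0.09), eif1b by 1.99 ± 0.10 and eif3c from 9.64 to 23.9 reads (2.45 ± 0.30), though eif3c already had 44.9 reads at 0.25, and the cap-binding eif4ea fell from 455 to 50.8 (-1.97 ± 0.12).

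**Figure D2:**
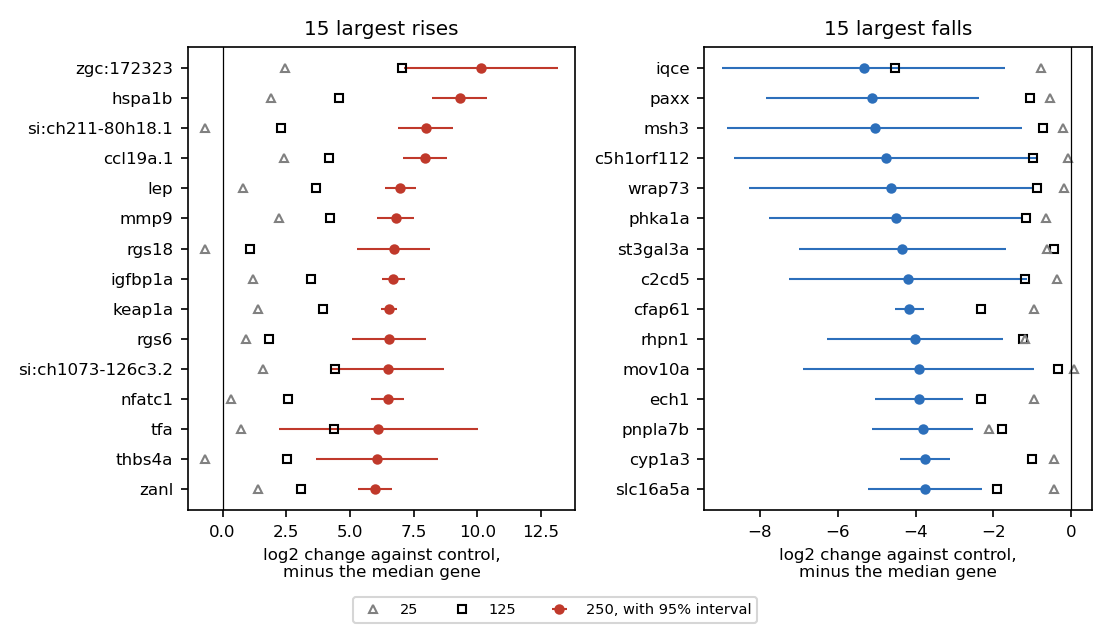
Centred log2 change of the 15 genes with a symbol that rose most and the 15 that fell most at 250 (filled points with 95% intervals), with their changes at the next lower concentration (squares) and 25 (triangles). Among the rises the interval is narrow for keap1a (6.22 to 6.85) and wide for zgc:172323 and tfa, and among the falls it is narrow for cfap61 and wide for msh3.

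The 15 genes with the largest rises included secreted factors, signalling proteins and a protease. The gene zgc:172323 rose furthest, from 1.16 estimated reads per library to 177 at the next lower concentration and 829 at 250, a centred change of 10.14 ± 1.28; with so few control reads its 95% counting interval ran from 9.02 to 13.92. Ccl19a.1, a chemokine, went from 1.44 to 210 reads with a counting interval from 6.75 to 10.59, and lep, the leptin gene, from 2.0 to 137.8 with one from 5.91 to 9.17. Mmp9, a gelatin-degrading metalloprotease, had 24.98 reads in the control, 391 at the next lower concentration and 1245 at 250 (6.79 ± 0.31). Igfbp1a, a secreted protein that binds insulin-like growth factors and rises in stressed or fasted fish, went from 112 to 1018 and 5157 reads (6.70 ± 0.19). Nfatc1, a calcium-dependent transcription factor, went from 6.34 to 270 reads (6.48 ± 0.28), and zanl from 5.00 to 154 (5.99 ± 0.28). The remaining genes of the 15 besides hspa1b and keap1a had at most 2.37 reads in the control. They were si:ch211-80h18.1 (95.8 reads at 250), rgs18 (39.9), rgs6 (34.8), si:ch1073-126c3.2 (114), tfa (45.5) and thbs4a (25.3). The lower ends of their counting intervals, which leave out the spread between libraries, lay between 4.31 and 6.27. The 95% intervals from the SE started lower for tfa (2.20, SE 1.66), thbs4a (3.68, SE 1.01) and si:ch1073-126c3.2 (4.30, SE 0.93). For rgs6, rgs18 and si:ch211-80h18.1 they started at 5.07, 5.28 and 6.89. Rgs18 and rgs6 encode regulators of G-protein signalling.

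Of the 15 genes that fell most, 10 had an SE above 0.9 and under 4 reads at 250. Iqce went from 101 to 0.62 reads, paxx, a factor of DNA end joining, from 179 to 1.79, and msh3, a mismatch repair gene, from 311 to 3.65, with centred changes of -5.33 ± 1.54, -5.11 ± 1.16 and -5.05 ± 1.61. The counting interval ran from -11.80 to -3.99 for iqce and from -7.19 to -3.94 for paxx. C5h1orf112, wrap73, phka1a, st3gal3a, c2cd5, rhpn1 and mov10a followed at -4.76 to -3.92 with SEs of 0.96 to 1.65, and c5h1orf112 and wrap73 were no longer called with the better expressed genes as reference (adjusted p = 0.05936 and 0.05376). The others had smaller SEs, from 0.16 to 0.62, but only 0.62 to 2.46 reads at 250, so their counting intervals stayed wide. Cfap61, a protein of motile cilia, went from 120 to 19.2 reads at the next lower concentration and 2.46 at 250, with a centred change of -4.17 ± 0.16 and a counting interval from -6.04 to -3.16. Cyp1a3, a cytochrome P450 induced through the aryl hydrocarbon receptor, went from 65.6 to 26.5 and 1.67 reads (-3.75 ± 0.27, counting interval -6.57 to -2.69). Ech1, an enzyme of fatty acid oxidation, pnpla7b, a lipase-like protein, and slc16a5a, a monocarboxylate carrier, had changes of -3.91 ± 0.47, -3.82 ± 0.55 and -3.75 ± 0.62. Their counting intervals ran from -5.99 to -2.71, from -5.70 to -2.81 and from -10.21 to -2.36.

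Some genes were read in one group alone. Of the called genes 137 had 0 reads in both libraries at 250 and 231 had 0 in both control libraries; for these a bound is given, computed with 3 reads per library in the empty group. Nfat5a, an osmotic stress factor, had 186 reads in the control, 122.7 at the next lower concentration and 0 at 250, so its centred change was at least 4.56 lower (bound -4.56). Nisch, wdyhv1 and ssx2ipa went to 0 from 147, 134.4 and 87.3 reads, with bounds of -4.22, -4.09 and -3.47. In the opposite direction col2a1b, a cartilage collagen, had 0 reads in the control, 4.70 at the next lower concentration and 64.5 at 250, a bound of 5.39. Cuzd1.2 and batf reached 38.4 and 24.0 reads, with bounds of 4.65 and 3.98. Hhat had 0 reads in the control but 54.3 at 0.25, 46.99 at 2.5 and 31.6 at 250, so it was read at every concentration and its bound of 4.38 is not particular to the highest. Among genes known only by a locus number and read at least 10 times in both groups, LOC118938280 (10.05 ± 2.84) and LOC110523814 (9.50 ± 0.42) had the largest centred change, LOC118938280 having already gone from 19.6 to 608.9 reads at 0.25, and LOC110497327 (-3.42 ± 0.79) and LOC110502563 (-3.19 ± 0.20) the smallest.

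In the list of cytokines, NF-kappa-B and STAT signalling 29 of 61 members were higher and 4 lower (26 and 20 without centring, 37 and 2 with the better expressed genes as reference), and over the 43 members with at least 10 reads these counts were 24 and 4. Socs3, an inhibitor of cytokine receptors, went from 306 to 1108 reads at the next lower concentration and 4998 at 250 (5.21 ± 0.13), nfkbiab, an inhibitor of NF-kappa-B, from 58.5 to 341 (3.71 ± 0.11), and csf3a from 7.76 to 92.5 (4.67 ± 0.45). Cox-2, which makes prostaglandin precursors, was already abundant at 10830 reads and reached 55960 (3.55 ± 0.17). Csf1, a growth factor of macrophages, rose from 12950 to 37160 reads (2.70 ± 0.08) and il11 from 903 to 3147 (2.98 ± 0.16). Immediate early transcription factors had 8 of 12 members higher and 0 lower (8 and 2 without centring), with a median of 2.20. Ier2b went from 249 to 1665 reads (3.92 ± 0.13), csrnp1b from 165 to 1054 (3.85 ± 0.19), and nr4a3 from 0.88 to 16.3 with a counting interval from 3.25 to 8.33. Among MAP kinases and their phosphatases 8 of 23 were higher and 4 lower (4 and 13 without centring, 10 and 1 with the better expressed genes as reference); map3k7cl (4.83 ± 0.61), mknk2b (3.60 ± 0.12), dusp2 (2.18 ± 0.37) and map3k5 (1.68 ± 0.19), a kinase activated by oxidants, had the largest changes. The interferon response list held 3 higher and 2 lower of 18 (2 and 11 without centring, 7 and 2 with the better expressed genes as reference): irf8 rose by 2.84 ± 0.27 and stat1b by 1.99 ± 0.11, ifn1 had 1.23 ± 0.33 and was not called without centring, and psmb9a, an immunoproteasome subunit, fell by 1.41. Genes of TGF-beta, BMP, Wnt and Notch signalling were higher in 14 of 36 cases and lower in 6 (10 and 14 without centring). Over the 26 members with at least 10 reads these counts were 11 and 5. Id2a rose from 119 to 915 reads (4.11 ± 0.10), ccn2a, a matricellular target of TGF-beta, from 2461 to 9671 (3.15 ± 0.14), inhbaa, an activin subunit, from 2.85 to 80.2 with a counting interval from 4.76 to 7.38, and dll4, a Notch ligand, from 0 to 15.1 with a bound of 3.33. In the hypoxia list 5 of 10 rose and 3 fell (3 and 4 without centring, 6 and 1 with the better expressed genes as reference; 3 and 3 over the 7 members with at least 10 reads). The 5 higher members included igfbp1a, vegf, a growth factor of blood vessels, from 33.5 to 304 reads (4.34 ± 0.28), and vegfc from 0 to 19.1 (bound 3.67), while vhl, which marks hypoxia-inducible factors for degradation, fell by 1.05.

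In the matrix list 21 of 44 members were higher and 9 lower (18 and 13 without centring); 18 of the 44 had under 10 reads, and over the other 26 the counts were 13 and 8. Besides col2a1b, the largest changes were those of col9a3, thbs4a and fbln1, from under 1 read each to 22.9, 25.3 and 12.4, with a bound of 3.92 for col9a3 and 3.06 for fbln1 and a counting interval from 4.31 to 12.18 for thbs4a. The 9 lower members included nid2a (7570 to 1536 reads) and lama5 (15810 to 4477). Proteases and inhibitors had 9 of 24 members higher and 4 lower (8 and 6 without centring; 6 and 4 over the 13 members with at least 10 reads). Mmp19 rose from 4915 to 26170 reads (3.59 ± 0.08) and serpine2 from 173 to 886 (3.53 ± 0.12). Of integrins and focal adhesion genes 5 of 17 rose and 4 fell (4 and 7 without centring), led by tns2a (3.11 ± 0.13) and the fibronectin receptor subunit itga5 (2.45 ± 0.15), with zyx at 1.86 ± 0.10 and itga3b at 1.56 ± 0.16. Actin and contractile genes had 10 of 28 higher and 6 lower (5 and 18 without centring). Among the called members with at least 10 reads in the higher group, ezra (2.11 ± 0.22), myo1g (2.10 ± 0.10), myo9ab (1.65 ± 0.12) and tpm2 (1.53 ± 0.17) changed most.

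**Figure D3:**
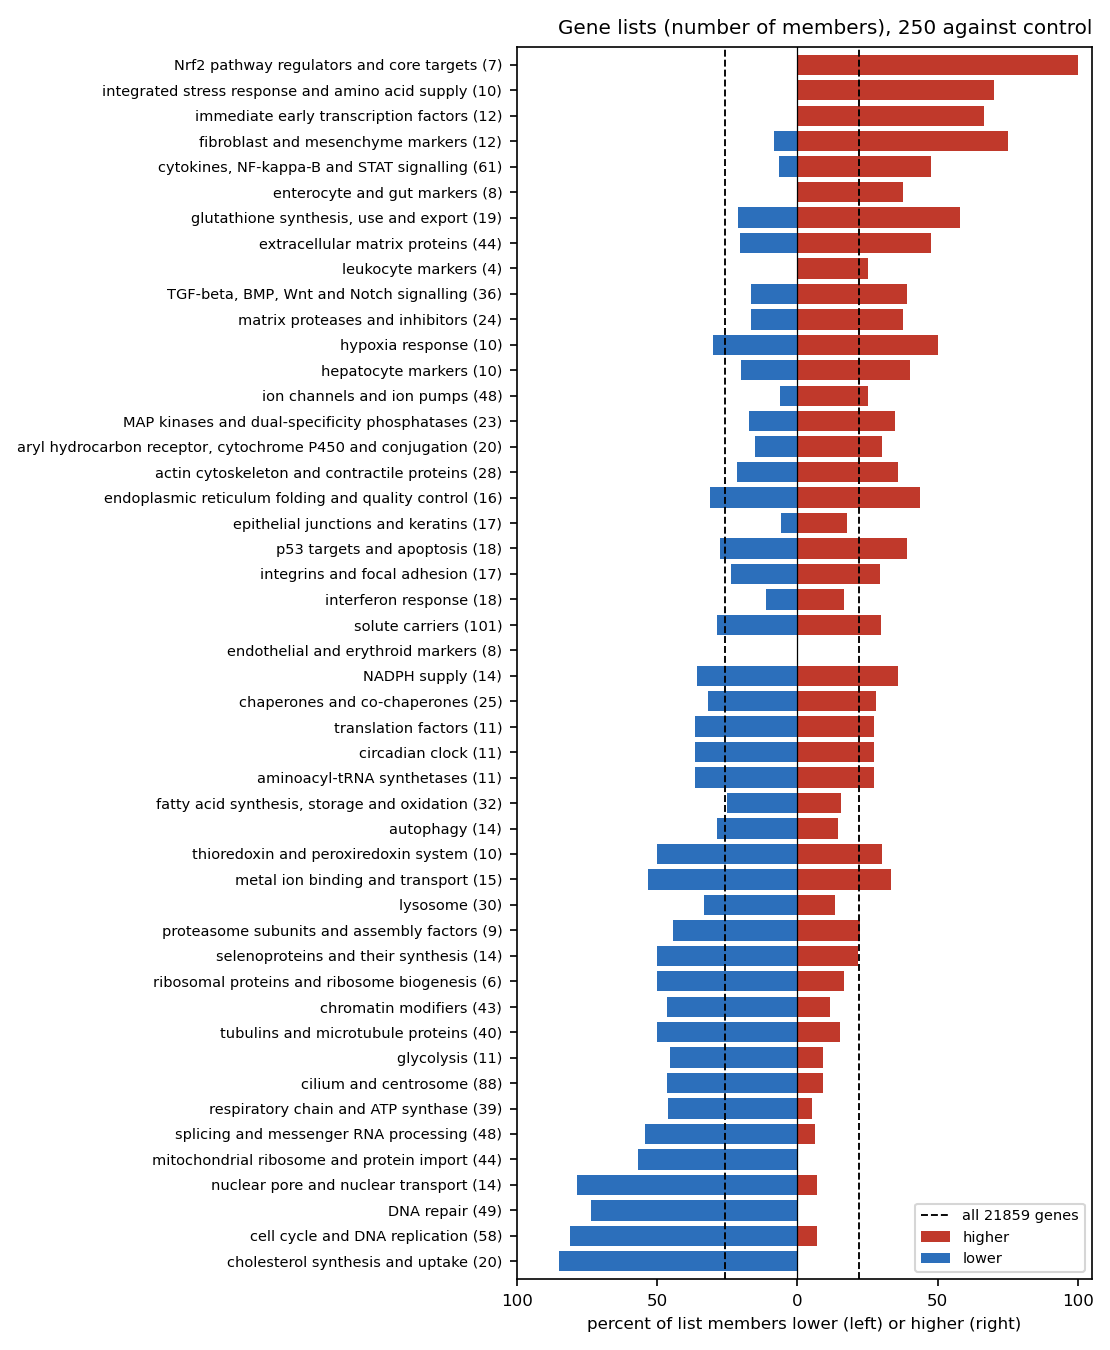
Share of the members of 48 gene lists that were lower (blue, to the left) or higher (red, to the right) at 250 relative to the median gene, with the number of members in brackets. The dashed lines mark the share over all genes, 25.9% lower and 21.9% higher. Over the 5203 genes with a symbol these shares were 34.4% and 19.1%. The Keap1 and Nrf2 list stands at the top with 7 of 7 higher, and cholesterol synthesis at the bottom with 17 of 20 lower.

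Cell cycle and DNA repair genes were lower. In the list of cell cycle and DNA replication 47 of 58 members fell and 4 rose (53 and 4 without centring, 41 and 5 with the better expressed genes as reference), with a median of -0.92. Bub1, a kinase of the spindle checkpoint, went from 309 to 177 reads at the next lower concentration and 23.3 at 250 (-2.52 ± 0.22), and orc5, a subunit of the origin recognition complex, from 430 to 35.9 (-2.39 ± 0.17). Cdkn1a, the p21 inhibitor of cyclin-dependent kinases and a p53 target, fell from 553 reads in the control and 282 at the next lower concentration to 54 at 250 (-2.17 ± 0.11). Cdk14 went from 53.7 reads to 0 (bound -2.78). The 4 risers were cenpv (3.72 ± 0.14), cdk15 (2.63 ± 0.10), cdk6 and cdkn1d. DNA repair had 36 of 49 members lower and 0 higher (47 and 0 without centring, 30 and 1 with the better expressed genes as reference), with a median of -1.01. Beside msh3, the largest falls were those of fancc (112 to 13 reads, -1.88 ± 0.13), rad9a (454 to 58.8, -1.76 ± 0.18) and rad52 (97.9 to 14.5, -1.53 ± 0.29), which belong to crosslink repair, the checkpoint clamp and recombination. Of p53 targets and apoptosis genes 7 of 18 rose and 5 fell (4 and 8 without centring): bcl2l13, plk3 and birc2 rose by 2.52 ± 0.08, 2.26 ± 0.10 and 2.06 ± 0.08, and casp3b, the executioner caspase, fell from 36.5 to 3.59 reads (a centred change of -2.0 ± 0.48).

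Of 20 members of cholesterol synthesis and uptake 17 fell and 0 rose (20 and 0 without centring, 12 and 0 with the better expressed genes as reference), with a median of -0.81. Nsdhl, a late enzyme of the pathway, went from 439 to 175 and 47.5 reads (-2.02 ± 0.13), fdft1, which makes squalene, from 441 to 63.2 (-1.62 ± 0.18), stard4, a cholesterol carrier, from 94.6 to 10.4 (-1.95 ± 0.22) and pmvk from 165 to 30.7 (-1.23 ± 0.33). The rate-limiting hmgcra fell by less, from 2103 to 549 reads (-0.76 ± 0.08). Fatty acid genes had 5 of 32 members higher and 8 lower (2 and 23 without centring, 10 and 4 with the better expressed genes as reference). Agpat4, an acyltransferase of phospholipid synthesis, rose from 31.9 to 276 reads (4.27 ± 0.29) and acss1 by 1.84 ± 0.08, while acox3 (-1.82 ± 0.12) and decr2 (-1.76 ± 0.15), both of peroxisomal oxidation, fell.

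Falls of mitochondrial genes had smaller medians, and their frequency was not far from that of other well-read genes. Of the 5239 genes with 200 to 1000 reads 46.4% were lower. The respiratory chain stood at 46.2% and the mitochondrial ribosome and import at 56.8%. Chromatin modifiers and the cilium and centrosome list, given below, stood at 46.5% and 46.6%. In the cilium and centrosome list 17 of 88 members had under 10 reads, and of the other 71 members 41 were lower. Of all genes with at least 10 reads 34.15% were lower. Read depth was not matched between the lists and the genes with 200 to 1000 reads. Of 39 members of the respiratory chain and ATP synthase 18 fell and 2 rose (38 and 0 without centring, 14 and 4 with the better expressed genes as reference), with a median of -0.47; sdhaf4 (-1.22 ± 0.17), sdhaf3 (-1.18 ± 0.10), ndufa2 (-1.18 ± 0.13) and ndufa11 (-0.998 ± 0.18) changed most, assembly factors of succinate dehydrogenase and subunits of complex I. The 2 risers were atp5if1a and atp5if1b, inhibitors of the ATP synthase, at 0.53 and 0.65. Of 44 genes of the mitochondrial ribosome and protein import 25 fell and 0 rose (43 and 0 without centring, 16 and 2 with the better expressed genes as reference), with a median of -0.38 and the largest changes at mrps12 (-1.45 ± 0.30), mrps25 (-1.29 ± 0.25), mrpl37 (-1.06 ± 0.09) and timm44 (-1.03 ± 0.15). Glycolysis had 1 of 11 higher and 5 lower (1 and 8 without centring): hk2, the first enzyme, rose by 1.91 ± 0.09, and pdk1, tigara and pfkmb fell, with changes of -1.58, -1.02 and -0.999.

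Nuclear pore and transport genes had 11 of 14 members lower and 1 higher (14 and 0 without centring, 8 and 2 with the better expressed genes as reference), with nup205 (2552 to 527 reads, -1.10 ± 0.09), nup210 (-1.10 ± 0.11), kpna6 (-1.31 ± 0.15) and senp5 (-1.04 ± 0.13) in front. Of 48 splicing and RNA-processing genes 26 fell and 3 rose (45 and 1 without centring, 14 and 6 with the better expressed genes as reference), led by hnrnpd (427 to 36.6 reads, -2.35 ± 0.24), lsm11 (-1.94 ± 0.16), hnrnpul1 (-1.73 ± 0.20) and srsf3b (-1.47 ± 0.10). Chromatin modifiers had 20 of 43 lower and 5 higher (35 and 2 without centring, 13 and 11 with the better expressed genes as reference); brd2a rose by 3.08 ± 0.10, kmt2a by 1.78 ± 0.22, and kdm6ba, a histone demethylase, by 2.69 ± 0.75, which was not called without centring (adjusted p = 0.08433), while setd9 fell by 1.58. Ribosome biogenesis, with only 6 named members, had 1 higher, wdr43 at 1.43 ± 0.08, and 3 lower (1 and 5 without centring), ddx52 at -1.24 ± 0.08, npm1b at -0.84 ± 0.18 and nol7 at -0.54 ± 0.08.

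The cilium and centrosome list had 41 of 88 members lower and 8 higher (65 and 4 without centring, 33 and 14 with the better expressed genes as reference). Cfap157 rose from 31.9 to 366 (4.68 ± 0.19) and cfap53 from 2.0 to 20.8 with a counting interval from 3.11 to 6.51. Tubulins and microtubule proteins had 20 of 40 lower and 6 higher (27 and 2 without centring, 16 and 10 with the better expressed genes as reference). Tubb2b, a beta-tubulin and the most abundant of them, fell from 18570 to 2065 reads (-1.99 ± 0.09), whereas map1ab rose by 3.35 ± 0.22, and dnah2, kif1aa and dnah1 rose from under 4 reads each to 20.5, 16.5 and 10.96, of which kif1aa and dnah1 were not called without centring (adjusted p = 0.05181 and 0.06479).

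Membrane carriers and protein turnover were mixed, and several of their shares lay near those over all genes, 21.9% higher and 25.9% lower. Solute carriers had 30 of 101 members higher (29.7%) and 29 lower (28.7%). Without centring these counts were 21 and 51, and with the better expressed genes as reference 35 and 15. Over the 76 members with at least 10 reads they were 21 and 29. The largest rises of solute carriers were those of slco1d1, from 0 to 22.2 reads (bound 3.88), slc37a4a, from 1.44 to 31.9 (counting interval 3.98 to 7.91), slc4a5a (4.77 ± 0.44) and slc6a16a (4.33 ± 0.62). Ion channels and pumps had 12 of 48 higher and 3 lower (7 and 14 without centring; 8 and 2 over the 20 with at least 10 reads): cacna1fb went from 14.7 to 366 reads (5.77 ± 0.30), kcnk3a from 13.1 to 51.5 (3.12 ± 0.57), kcnc3a from 3.47 to 22.3 (3.70 ± 0.51) and atp8b1 from 0.90 to 24.9 (counting interval 3.89 to 8.91). In the metal list 5 of 15 rose and 8 fell (3 and 12 without centring, 5 and 4 with the better expressed genes as reference). Slc40a1, the iron exporter ferroportin, rose from 1891 to 6232 reads (2.90 ± 0.10) and the zinc carrier slc39a1 by 1.49 ± 0.10, while tfr1b, a receptor for iron uptake, fell from 17340 to 2938 (-1.38 ± 0.08) and slc31a2, a copper carrier, by 1.41. The aryl hydrocarbon receptor and cytochrome P450 list had 6 of 20 higher and 3 lower (5 and 10 without centring, 7 and 1 with the better expressed genes as reference). Over the 14 members with at least 10 reads these counts were 4 and 3. Cyp1c2 rose from 4.80 to 38.95 reads (4.07 ± 0.33) and cyp2k5 from 1.79 to 17.4 (counting interval 2.82 to 6.26), opposite to cyp1a3. Proteasome genes had 2 of 9 higher and 4 lower (1 and 8 without centring); psmd1 rose by 1.85 ± 0.07, and psmg3, psmb9a and psmb8a fell by 1.70, 1.41 and 0.73. Autophagy had 2 of 14 higher and 4 lower (1 and 10 without centring), the risers being sqstm1 and map1lc3b and the lower genes including atg2a (-0.93 ± 0.13), atg4c (-0.84 ± 0.08) and becn1 (-0.75 ± 0.12). The lysosome list had 4 of 30 higher and 10 lower (1 and 27 without centring, 8 and 7 with the better expressed genes as reference): ctsh rose by 1.78 ± 0.11, and neu3.1 (-2.85 ± 0.55), idua (-2.68 ± 0.14) and ctso (-1.66 ± 0.20) fell. Of 11 clock genes 3 rose and 4 fell (3 and 6 without centring), among them the repressors bhlhe40 (2.32 ± 0.17) and nr1d2a (2.28 ± 0.17) upwards and clocka (-1.92 ± 0.17) and dbpb (-1.47 ± 0.15) downwards.

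Markers of cell identity were checked against the label. These lists match genes by symbol or synonym, and 16656 of the 21859 genes carry only a locus number. Markers under such numbers can therefore be missed, and the read sums of the lists do not settle which kinds of cells are present. The line is described as intestinal epithelium. Of the 8 enterocyte and gut markers found, 5 had under 10 reads. Together the 8 summed to 145 estimated reads per library in the control and 185 at 250. The digestive enzymes si and anpepa had 75.9 and 33.99 reads in the control, and muc2.1 none. Of this list 3 members rose and 0 fell (3 and 2 without centring, 1 and 0 over the 3 members with at least 10 reads). They were cdhr5b of the brush border, from 14.5 to 126 reads (4.25 ± 0.28), cdhr2 from 0 to 10.3 (bound 2.80) and muc2.1 from 0 to 2.33. The 2.33 reads of muc2.1 lie under the 3 reads that bounds put in the empty group, so its rise is not secure. Keratin was plentiful. The gene with the synonym krt18 held 0.993% of reads in the control and 0.427% at 250. Its centred change was 0.05 ± 0.09, so it moved with the median gene. In the junction and keratin list 3 of 17 rose and 1 fell (2 and 5 without centring, 5 and 1 with the better expressed genes as reference, 2 and 1 over the 8 with at least 10 reads), pard6a by 2.48 ± 0.13, ctnna2 with 0.97 ± 0.27, which was not higher without centring, and marveld2a by -0.87 ± 0.11. Fibroblast and mesenchyme markers summed to 40140 reads in the control and 64310 at 250, and 9 of 12 rose and 1 fell (7 and 1 without centring), among them cdh2 from 352 to 1701 reads (3.45 ± 0.10), col1a1 from 4270 to 7779 (2.04 ± 0.11), fap (2.58 ± 0.25) and cdh11 (2.76 ± 0.34). Leukocyte markers summed to 40.7 reads in the control and to fewer than 145 at 250, with 1 of 4 higher, lyz2 at 3.06 ± 0.28, and 0 lower, and ptprc near 0. Of endothelial and erythroid markers, which summed to 162 and 89.5 reads, 0 of 8 were called in either direction by limma's moderated t-test and 1 was lower without centring. Hepatocyte markers, at 826 and 749 reads, had 4 of 10 higher and 2 lower (4 and 3 without centring; 2 and 2 over the 4 with at least 10 reads), with tfa, fga (309 to 607 reads, 2.15 ± 0.22) and hpda (2.46 to 18.5) upwards and cps1 (-1.63 ± 0.18) downwards. Whether the matrix and cytokine counts above moved with a change in the kinds of cells was not tested.

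The last step of concentration, up to 250, was tested gene by gene on the difference between both treated groups; the control mean of the gene cancels in it, but control libraries enter the reference median and the variance. Between them 7313 genes differed (33.5%), 3382 upwards (15.5%) and 3931 downwards (18.0%). All 7 Keap1 and Nrf2 members, 7 of 10 of the integrated stress response and 11 of 19 glutathione members were higher at 250 than one step below, and 47 of 58 cell cycle, 28 of 49 DNA repair and 29 of 44 mitochondrial ribosome and import members were lower; 8 of 20 cholesterol genes were lower. Genes at 0 reads in either group, such as nfat5a, wdyhv1 and slc37a4a, were left out of the ranking of steps. Among the others with a symbol and at least 10 reads in the higher group, the largest steps up were those of si:ch211-80h18.1 (3.0 to 95.8 reads, 5.67 ± 0.46), rgs18 (1.00 to 39.9), sez6l2 (1.56 to 46.03), cuzd1.2 (1.44 to 38.4), aspdh (0.37 to 14.3) and tjp3 (2.62 to 52.6 reads, 4.97 ± 1.48), a tight junction protein. Under the same limits the largest steps down were those of paxx, st3gal3a, ccdc57, arl4aa, tex9 and cyp1a3, from 69.4, 55.9, 42.9, 14.9, 45.7 and 26.5 reads to under 3 each. With the SE raised to at least the median, the moderated t-test no longer called the steps of sez6l2 and tjp3 (adjusted p = 0.06753 and 0.06639). The same held for paxx, st3gal3a and ccdc57 (adjusted p = 0.05999, 0.06124 and 0.08011). In the authors' F-test sez6l2 and tjp3 were not called either (adjusted p = 0.1627 and 0.2007). Hspa1b gained 4.72 log2 units in this step (adjusted p = 0.0004679) and gclc 1.19 (adjusted p = 0.0001192).

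Against the same control libraries, 12, 11, 216, 3519 and 10445 genes were called at the 5 concentrations in rising order. At 25 the 173 higher genes outnumbered the 43 lower ones. The benchmark doses of the authors' deposited table, the concentrations at which a modelled response first departs from control, were given for 974 of the 4778 higher and 4435 of the 5667 lower genes, with medians of 40.7 and 24.5 on the table scale. These doses were not derived from centred changes, whereas higher and lower are calls on centred changes. The median gene itself shifted by -0.21 at 25, -0.56 at the next lower concentration and -1.01 at 250. The counts and medians therefore do not compare the onset of rises with that of falls. In the authors' deposited table keap1a had a benchmark dose of 0.418, mmp9 of 0.440, gsr of 2.38, gclc of 2.51 and hspa1b of 6.12. These doses come from fitted curves and are not observed onsets. At 2.5 the centred changes of these genes were 0.31, 0.86, 0.06, 0.09 and 0.37, in the same order. In the authors' deposited table hmox1a had 146, fancc 63.9 and bub1 42.9.

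**Figure D4:**
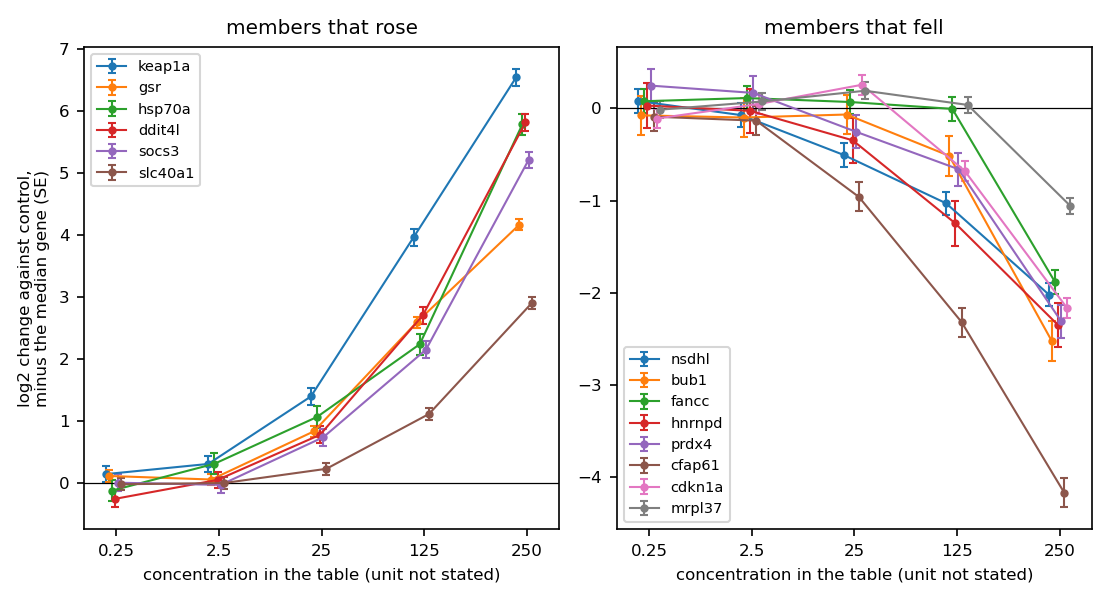
Centred log2 change with SE at the 5 concentrations of the gut line for 6 genes that rose (left) and 8 that fell (right) at 250, spaced evenly along the axis; all points of a gene share its control libraries. At 25 keap1a is at 1.39 and gsr at 0.83, whereas mrpl37 and fancc are still at 0.04 and -0.01 at the next lower concentration and at -1.06 and -1.88 at 250.

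The change at 250 in gut was set against the mean of the changes in the gill and liver lines, each relative to its own controls and its own median gene, for the 12586 genes in all 3 tables. The difference itself was past the threshold for 2667 genes (21.2%), 1104 with the higher change in gut (8.77%) and 1563 with the lower one (12.4%). Cell cycle genes were lower in gut than in the other lines in 20 of 42 cases and higher in 2, DNA repair genes lower in 15 of 36 and higher in 0, and matrix proteases and inhibitors higher in 7 of 14 and lower in 0. Cdkn1a differed by -2.75 (adjusted p = 3.863e-09), with centred changes of -2.17 in gut, -0.37 in gill and 1.53 in liver. Socs3 differed by 2.14, with 5.21 in gut, 2.74 in gill and 3.40 in liver. The gene with the synonym ddit4l differed by 1.92 (5.81, 3.39 and 4.39), and bhlhe40 by 2.98. Of the Keap1 and Nrf2 list 1 of 6 members was higher in gut and 1 lower, with medians of 3.37 in gut, 3.80 in gill and 3.87 in liver. Gsr differed by -0.07 (adjusted p = 0.7366), whereas gclc rose less in gut than elsewhere, 2.69 against 4.23 in gill and 4.43 in liver (adjusted p = 3.268e-07).

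The 8 genes furthest above and 8 furthest below the other lines, among those with a symbol, at least 10 reads in the higher group of each line and more than 0 in the lower, are given by name; this leaves out genes such as nfat5a, whose difference was -6.92 with 0 reads at 250 in gut. Cacna1fb, a subunit of a voltage-gated calcium channel, rose by 5.77 ± 0.30 in gut and had -0.36 ± 0.28 in gill and -1.38 ± 0.41 in liver, a difference of 6.64 ± 0.39. Serpine2, an inhibitor of thrombin and plasminogen activators, rose by 3.53 ± 0.12 against -0.05 ± 0.12 and -0.44 ± 0.19 (difference 3.78 ± 0.16). Cfap53, cdk6, c19h8orf74, sema3bl, rasgef1bb and kdm6ba differed by 3.65 to 5.42. Zfand2a, a zinc-finger protein induced by arsenite and heat in mammals, rose in all 3 lines but by 3.17 ± 0.09 in gut, 6.57 ± 0.12 in gill and 5.55 ± 0.30 in liver (difference -2.89 ± 0.19). Desi1a fell by 2.61 in gut and had 3.11 ± 0.23 in gill, and its difference from the mean of gill and liver was -4.51 ± 0.53. Gpc5b, a cell-surface proteoglycan, had 0.46 ± 0.39 in gut against 4.57 and 3.43. Bmb, tex9, rbms3, cmc4 and shisal1b differed by -3.20 to -2.79.

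**Figure D5:**
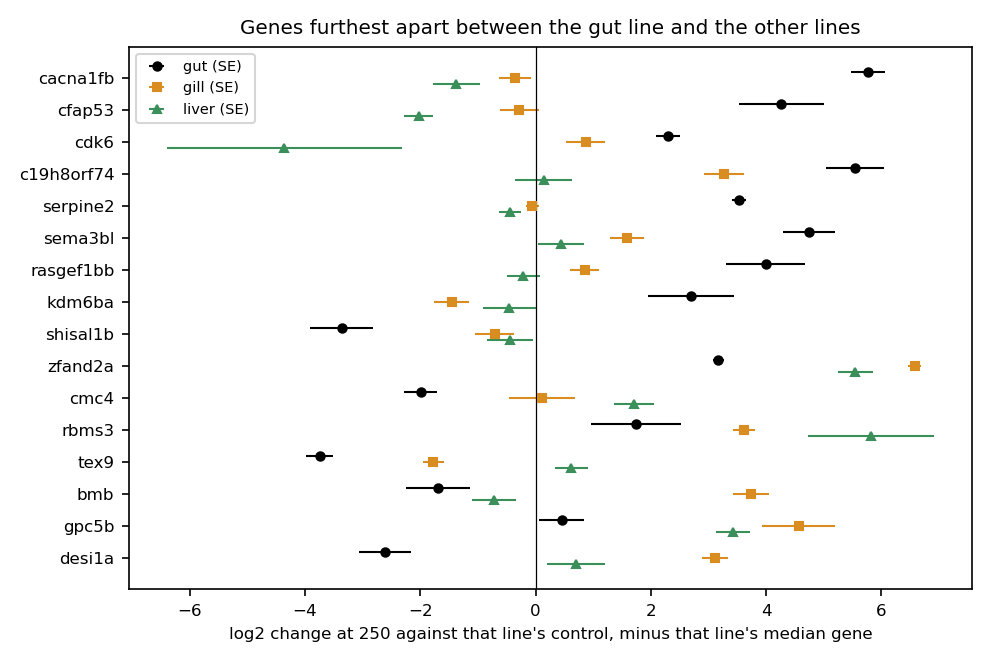
Centred log2 change at 250 with SE in the gut (circles), gill (squares) and liver line (triangles). Shown are the 8 genes whose change in gut lay furthest above, and the 8 furthest below, the mean of the other lines. They were taken among genes with a symbol, past the threshold, with at least 10 reads in the higher and more than 0 in the lower group of each line. Cacna1fb and serpine2 are near or below 0 outside gut, and zfand2a rises in all 3 lines with gut the lowest at 3.17.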

How the data were processed

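RNA of the 4 gut libraries was sequenced as paired ends; per the submitters' processing notes the authors used fastp and Salmon, whose versions, the genome build and the annotation are not given in the sources used here. The tables used here, as deposited by the authors, give log2 fold changes against control, log2 mean expression, an F statistic and its p-value per gene, and a second deposited table with benchmark doses. From these, group means, the moderated variance and its SE, and the 7.11 total degrees of freedom of the moderated test were recovered. Recovered control means matched the deposited ones within 9.8e-14. Estimated reads assume an offset of 0.5 and the lowest value of a group as 0 reads. Titles give concentrations a factor of 250 below the tables.

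Each fold change was centred on the median gene and tested with limma's moderated t-test (two-sided, Benjamini-Hochberg, threshold 0.05, Python 3.11.15, scipy 1.17.1); the difference between lines used the 3 SEs with Satterthwaite degrees of freedom. The code was tested on simulated data with limma 3.58.1 in R 4.3.3. Symbols and synonyms come from NCBI's gene table for assembly USDA_OmykA_1.1, which matched all 21859 IDs; 5203 have a symbol and 1180 belong to at least 1 of 48 lists. The members and lists were chosen with earlier results of these data known, and names were added to or dropped from lists by symbol alone once the symbols in the table were seen. Genes were named by rule: the 15 largest rises and falls with at least 10 reads in the higher group and above 0 in the lower, up to 4 called members a list with the same minimum of 10 reads (a condition added to the list part of the rule after the tables were seen), 8 and 8 between lines, 6 and 6 for the last step (for both, at least 10 reads in the higher group and above 0 in the lower, of which the condition on 0 reads and, for the step, that on 10 reads were added after the tables were seen), 4 and 4 at 0 reads, and 2 and 2 locus numbers; other members are named to describe a count. Counting intervals (exact binomial, 95%) and bounds treat recovered reads as counts and cover counting error only. Salmon can split reads between near-identical copies, and whether strand was used is not stated. Some genes that the naming rule selects are not reported here.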

Additional observations from a re-analysis of the deposited data

Results flagged for a closer look

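At 250, 16 genes were taken up for a closer look because the test of the difference itself separated their centred change in gut from the mean of gill and liver; these are differences in log2 units with their adjusted p. Above the other lines were cacna1fb (6.64, adjusted p = 6.655e-09), cfap53 (5.42, 0.001568), cdk6 (4.04, 0.02738), c19h8orf74 (3.83, 0.0006066), serpine2 (3.78, 6.058e-11), sema3bl (3.72, 0.0003962), rasgef1bb (3.67, 0.007354) and kdm6ba (3.65, 0.01087). Below them were desi1a (-4.51, 8.677e-05), gpc5b (-3.54, 0.0001899), bmb (-3.20, 0.004195), tex9 (-3.17, 2.701e-06), rbms3 (-2.98, 0.04187), cmc4 (-2.91, 0.0001225), zfand2a (-2.89, 7.214e-08) and shisal1b (-2.79, 0.008199). For cdk6 the liver value has an SE of 2.03, and against liver alone its difference of 6.65 was no longer past the threshold (adjusted p = 0.06072). With the SE raised to at least the median, the difference of cdk6 did not pass either (adjusted p = 0.05333). The difference of bmb came from gill, where it had 3.73 ± 0.31, against -0.72 ± 0.38 in liver. That of rbms3 did not pass against gill alone (adjusted p = 0.1553), with the better expressed genes as reference (0.0517) or with the raised SE (0.07727). Cfap53, c19h8orf74 and rasgef1bb had under 3 reads in the gut control.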

How the results depend on the processing

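No paired analysis was possible because values per library could not be recovered, although labels number the libraries 1 and 2; leaving out a library was not run for the same reason, so dependence on 1 library is unknown. Without centring the higher genes at 250 numbered 2564 and the lower 11968; the SE raised to at least the median gave 3558 lower, and a change of at least 1 log2 unit 6576 genes, 2704 of them lower. For 250 against the next lower concentration, no centring gave 1845 higher and 8006 lower, the better expressed reference 2438 lower, the raised SE 3121 (1829 and 1292) and an adjusted p under 0.01 4064 (1854 and 2210). Between lines, no centring gave 2402 lower, the raised SE 1029 (573 and 456) and an adjusted p under 0.01 1433 (586 and 847). The F-test on centred values called 8851 genes. The cause was not tested, beyond the fewer genes each stricter rule keeps. The other counts over all genes stayed within 1.5 times. Of 96 counts of list members, 50, 29, 34, 23 and 7 moved by more than that without centring, with the better expressed reference, the raised SE, the stricter p and the filter on low values. With the raised SE the lower members numbered 9 for the mitochondrial ribosome and import (25 before), 9 for the respiratory chain (18), 13 for splicing (26), 11 for cholesterol (17), 6 for nuclear pores (11), 12 for chromatin (20) and 15 for solute carriers (29), and the higher members 2 for folding in the endoplasmic reticulum (7). Of 239 results for named genes, 1 reversed, ctnna2 at -0.038 without centring, and no centring, the better expressed reference, the raised SE and the stricter p ended 7, 4, 12 and 28 calls; the filter on low values ended 0 of the 207 it could test. Genes at 0 in 1 group, put at their bound, moved the medians of several lists. The median of cytokines went to 1.64, that of hepatocyte markers to 1.01 and that of matrix proteases and inhibitors from 0.89 to 0.62. For junctions and keratins it went from 0.61 to 0.05, and for the 4 leukocyte markers from 0.64 to 1.625. Depth limits the 5691 genes under 10 reads, with a median SE of 0.91 against 0.09 above 1000 reads.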

Other observations

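Reads at 250 were concentrated in few genes. In the gene order of USDA_OmykA_1.1, 6 of the 10 genes with the most reads at 250 start within 200 kb of each other. Together they held 4.61% of estimated reads in the control, 15.1% at the next lower concentration and 20.2% at 250, with centred changes from 3.17 to 3.73. The first of them, LOC118936428, alone went from 2.52% to 11.2%. The gene table gives all 6 a locus number only. LOC110538848, which is not among the 6, went from 0.335% to 3.80% (4.77 ± 0.15).

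Of 1502 long non-coding RNAs 421 (28.0%) were higher and 110 (7.32%) lower, beside 21.9% and 25.9% of all genes, with a median centred change of 0.81. Of these 819 had under 10 reads, and over the other 683 the counts were 263 and 88, with a median of 0.57, beside -0.21 for the 15420 protein-coding genes with that many reads. Read depth above that limit was not matched between both kinds of gene. Over all genes the median was 0.24 at 10 to 50 reads and -0.29 at 200 to 1000 reads.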
